A study of Mus musculus with 16 samples.

Results

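The 10 genes described here (Fgf4, Fgfr1, Fgfr2, Mras, Dusp6, Spry2, Spry4, Etv4, Etv5 and Egr1) were taken by name, as genes of FGF-ERK signalling and its feedback, from 22872 genes tested on the arrays. Each was measured by 1 probe set, and each lay above the detection floor on all 16 arrays. After 12 days without LIF, Mras was 6.71-fold lower in ESC lines that keep the MBD3 coiled coil and 2.50-fold lower in lines that lack it. Fgfr2 rose 2.22-fold in the lacking lines and 2.25-fold in the retaining lines. The lacking lines held less Dusp6 than the retaining lines in both conditions, and less Fgfr1 and Spry2 without LIF.

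All 16 samples are RNA of male 129SV mouse embryonic stem cells (ESCs), from 8 lines grown with LIF, the cytokine that keeps ESCs self-renewing, and after its withdrawal. Of the 3 lines lacking a coiled coil, all are Mbd3abc-KO cells, null for every isoform of MBD3, a subunit of the chromatin complex NuRD. Their stably introduced vector was empty (the empty vector line), encoded MBD3a from which the coiled coil was deleted (coiled-coil-deleted), or encoded MBD3a that lacks both this coil and the methyl-CpG-binding domain, MBD (doubly deleted). Of the 5 retaining lines, EBRTcH3 is the wild-type parent, and the other 4 are Mbd3abc-KO cells with a vector for MBD3a, MBD3b, MBD3c or an MBD3a that lacks the MBD alone (MBD-deleted). Isoforms b and c were counted as retaining because the labels name no coiled-coil deletion in them. The labels do not say whether a line is 1 clone or a pool. Each line gave 1 array per condition, so lines serve as replicates and p-values rest on the spread between lines. The LIF responses of both classes come from 1 fit that shares the spread of all 8 lines. A p-value for 1 class is thus no measure of the spread within that class alone. Values of the lacking lines are listed below in the order empty vector, coiled-coil-deleted, doubly deleted, and those of the retaining lines in the order EBRTcH3, MBD3a, MBD3b, MBD3c, MBD-deleted. The unit is the authors' log2 signal, in which a difference of 1 is a doubling.

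FGF4, secreted by ESCs themselves, binds FGF receptors and through RAS, RAF and MEK activates the kinase ERK, which drives ESCs out of self-renewal and towards differentiation. LIF acts through STAT3 in the opposite direction. ERK signalling induces its own inhibitors: DUSP6 removes the activating phosphates of ERK, and the Sprouty proteins act upstream, between receptor and RAF. ETV4 and ETV5 are ETS transcription factors induced by FGF signalling, and EGR1 is an immediate early transcription factor.

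The signal of Mbd3 was 7.45 without LIF and 7.00 with LIF in the empty vector line, against 8.45 to 9.59 on the other 14 arrays. Which part of Mbd3 the probe set reads, and so whether it lies in the deleted part, was not given. The mean of 10 ESC markers ranged from 11.12 to 11.37 over the arrays of the lacking lines, and over those of the retaining lines from 10.69 to 11.24 without LIF and from 11.27 to 11.49 with LIF. Their median change on LIF withdrawal was -0.18 in the lacking lines and -0.34 in the retaining lines. In the retaining lines 6 of the 10 fell, Esrrb (-1.63) and Nanog (-1.16) among them, and 2 rose. At the same adjusted p under 0.05, 14.5% of all genes fell there and 21.3% rose. The part of these markers in the responses below was not tested. In RNA from whole cultures, fewer cells of a type and less RNA per cell cannot be told apart. The sample titles run in a pair of separate number series. The first holds EBRTcH3, MBD3a, MBD3b, MBD3c and the empty vector line, the second the 3 deletion lines, and the labels do not say what the series stand for. The empty vector line is thus the only lacking line of the first series, and MBD-deleted the only retaining line of the second. A class difference within a series rests on that line.

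Promoter windows, from 250 bases before to 50 after the transcription start, were found for 6 of the 10 genes in RefSeq's table of GRCm38.p6. The windows of 4 genes on which the results turn are shown, each read 5′ to 3′ on its own strand. Every CpG is in capitals, since MBD3 takes its name from the methyl-CpG-binding domain. Neither methylation nor binding of MBD3 was measured on these arrays. Mras lies on the minus strand at chr9:99436663-99436962, Fgfr2 on the minus strand at chr7:130266759-130267058, Dusp6 on the plus strand at chr10:99262981-99263280 and Spry2 on the minus strand at chr14:105896770-105897069.
Mras: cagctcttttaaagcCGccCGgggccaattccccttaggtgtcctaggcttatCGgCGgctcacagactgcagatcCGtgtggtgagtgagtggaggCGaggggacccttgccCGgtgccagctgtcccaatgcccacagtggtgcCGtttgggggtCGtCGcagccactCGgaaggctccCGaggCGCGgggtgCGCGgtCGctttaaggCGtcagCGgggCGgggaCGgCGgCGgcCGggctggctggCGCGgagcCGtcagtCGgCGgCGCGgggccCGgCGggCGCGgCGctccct
Fgfr2: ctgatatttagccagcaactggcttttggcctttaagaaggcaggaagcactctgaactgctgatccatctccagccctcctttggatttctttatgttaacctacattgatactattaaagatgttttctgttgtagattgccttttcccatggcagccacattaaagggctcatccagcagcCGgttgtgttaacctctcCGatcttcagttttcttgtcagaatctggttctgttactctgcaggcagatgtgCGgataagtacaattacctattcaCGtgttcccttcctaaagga
Dusp6: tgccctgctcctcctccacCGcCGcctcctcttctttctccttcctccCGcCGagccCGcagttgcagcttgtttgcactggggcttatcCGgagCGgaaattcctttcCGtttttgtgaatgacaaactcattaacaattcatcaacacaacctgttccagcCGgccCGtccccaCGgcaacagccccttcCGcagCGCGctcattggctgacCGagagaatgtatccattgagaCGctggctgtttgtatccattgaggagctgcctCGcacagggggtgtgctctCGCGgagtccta
Spry2: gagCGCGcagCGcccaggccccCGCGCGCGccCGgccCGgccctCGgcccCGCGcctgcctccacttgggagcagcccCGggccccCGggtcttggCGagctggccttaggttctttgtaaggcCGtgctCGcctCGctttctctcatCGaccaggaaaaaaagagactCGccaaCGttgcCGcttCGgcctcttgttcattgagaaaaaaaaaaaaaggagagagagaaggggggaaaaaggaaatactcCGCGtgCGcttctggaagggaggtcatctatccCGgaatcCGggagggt

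These windows differed in CpG content. Mras held 36 CpGs in 300 bases and was 71.7% G and C, and 93.8% of 32851 promoter windows held fewer CpGs. Fgfr2 held 4 CpGs and was 43.7% G and C, below the medians over all windows of 7 CpGs and 52.7%. Dusp6 held 19 CpGs and Spry2 held 28. Motifs were searched on both strands, and a STAT match with C as its middle base can overlap an ETS match. The ETS motif CCGGAAG, present in 8.86% of all windows, the STAT motif TTCCNGGAA (1.15%), the cAMP response element TGACGTCA (1.79%) and the CArG box (1.63%) were not among the letters of any of the members' windows. The SP1 motif GGGCGG, present in 35.7% of windows, occurred in the windows of Fgf4 (2 matches), Mras (2 matches) and Etv5 (3 matches in the first of 2 windows). A match is a description of letters only.

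Over the comparisons, counts of the 10 genes are set beside the share of all tested genes that passed in the same direction at an adjusted p under 0.05. On LIF withdrawal in the lacking lines, 1 of the 10 rose (background 1.71%) and 2 fell (background 1.22%). In the retaining lines, 2 rose (background 21.3%) and 6 fell (background 14.5%), with a median difference of -0.41, against 0.04 over all genes. The response differed between the classes, lacking minus retaining, upwards for 1 gene (background 4.17%) and downwards for 1 (background 7.9%). With LIF, none of the 10 was higher in lacking than in retaining lines by the limma fit (background 7.65%), 2 were lower (background 6.48%), and 1 was higher at an unadjusted p under 0.05. The share of all genes at that unadjusted threshold was not computed, so this last count has no background. Without LIF, 1 was higher (background 8.55%) and 3 were lower (background 12.4%). Without the MBD-deleted line 4 of the 10 differed in response (3914 of all genes, against 2760 with every line) and 4 with LIF (3866, against 3233). Without the coiled-coil-deleted line 1 did in each (1353 and 1779 of all genes), as without the doubly deleted line (1369 and 1852). Without MBD3a, MBD3b or MBD3c 1 did with LIF (2346, 2214 and 2364 of all genes). The calls over all genes thus moved as well.

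**Figure D1:**
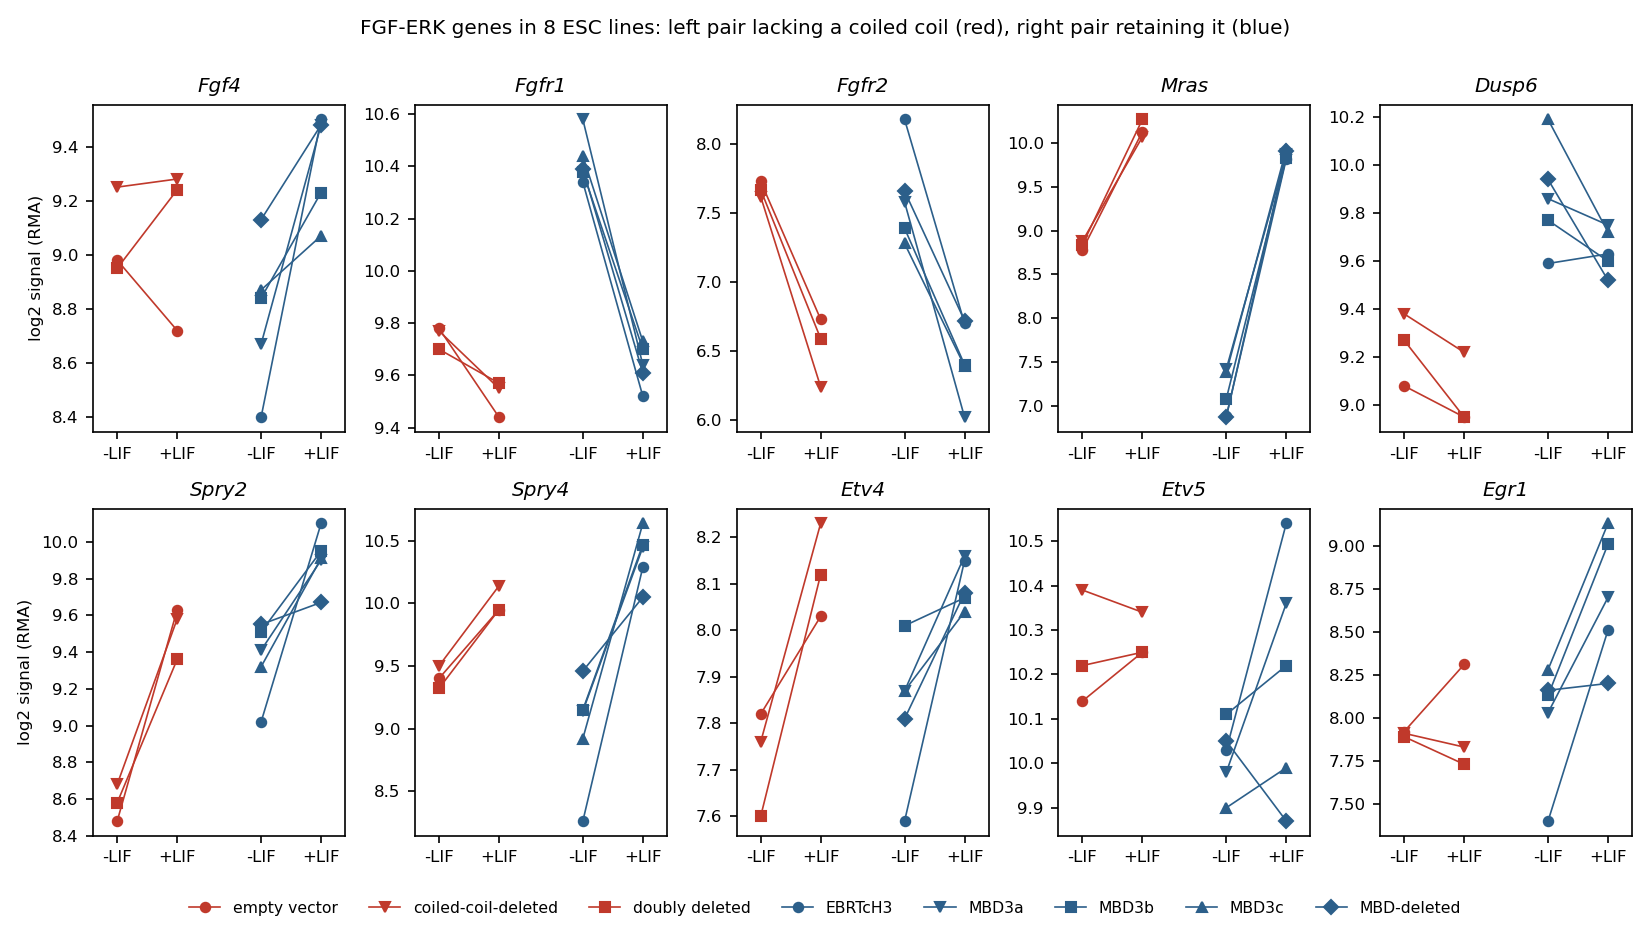
Log2 signal (RMA, vertical axes, a scale for each gene) of the 10 genes in every line without and with LIF. Lacking lines are red at the left of each panel, retaining lines blue at the right, and a line joins the 2 arrays of an ESC line; Mras of the retaining lines reaches 6.87 to 7.42 without LIF, below all other arrays.

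Mras, a RAS-family GTPase that in complex with SHOC2 promotes RAF activation, moved most. Its signal in the lacking lines was 8.78, 8.88 and 8.84 without LIF, against 10.13, 10.07 and 10.27 with LIF. Retaining lines had 6.88, 7.42, 7.08, 7.38 and 6.87 without LIF, against 9.82, 9.87, 9.83, 9.93 and 9.91 with LIF. No array without LIF overlapped an array with LIF, and without LIF the lacking lines all lay above the retaining lines. Mras fell by 1.32 ± 0.12 (SE, adjusted p = 0.000404) among lacking lines and fell by 2.75 ± 0.10 (adjusted p = 2.45e-08) among retaining lines. The responses differed by 1.42 ± 0.16 (adjusted p = 0.000364), and every lacking line (-1.43 to -1.19) responded less than every retaining line (-3.04 to -2.45). Without LIF Mras was 3.27-fold higher in lacking than in retaining lines (adjusted p = 3.66e-05). With LIF the lacking lines again lay above the retaining lines, by 0.28 ± 0.09, which did not pass (adjusted p = 0.0643). Within the title series the difference without LIF was 1.59 in the first, where the empty vector line is the only lacking line, and 1.99 in the second, where 2 lines stand against 1. The difference of the responses was 1.32 in the first series and 1.73 in the second.

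Both receptors rose on LIF withdrawal in the retaining lines. Between the classes the responses of Fgfr1 differed, and no difference for Fgfr2 passed. Fgfr1, the main FGF receptor of undifferentiated ESCs, measured 9.78, 9.77 and 9.70 in the lacking lines without LIF, against 9.44, 9.55 and 9.57 with LIF. Retaining lines measured 10.34, 10.58, 10.38, 10.44 and 10.39 without LIF, against 9.52, 9.64, 9.70, 9.73 and 9.61 with LIF. The retaining lines without LIF thus stood above all other arrays, with no overlap, and with LIF the classes overlapped. Fgfr1 rose by 0.79 ± 0.07 (1.72-fold, adjusted p = 1.34e-05) in the retaining lines. For the lacking lines 0.23 ± 0.10 did not pass (adjusted p = 0.268), though all 3 were higher without LIF. Lacking minus retaining, the responses differed by -0.56 ± 0.12 (adjusted p = 0.0130). This missed the threshold without the coiled-coil-deleted line (-0.55, adjusted p = 0.0586) or the doubly deleted line (-0.51, adjusted p = 0.0609). Within the title series the difference of the responses was -0.45 in the first and -0.61 in the second, each with a class left at a single line. Without LIF Fgfr1 was 1.60-fold lower in lacking than in retaining lines (adjusted p = 0.000280), with a difference of -0.66 in each title series.

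Fgfr2, the receptor typical of primitive endoderm, trophoblast and epithelia, measured 7.73, 7.62 and 7.67 in the lacking lines without LIF, against 6.73, 6.24 and 6.59 with LIF. Its signal in the retaining lines was 8.18, 7.58, 7.39, 7.28 and 7.66 without LIF, against 6.70, 6.02, 6.40, 6.39 and 6.72 with LIF. Arrays without LIF lay above all arrays with LIF in both classes, and the classes overlapped in both conditions. The rise was 1.15 ± 0.15 (adjusted p = 0.00321) in lacking lines and 1.17 ± 0.11 (adjusted p = 1.84e-05) in retaining lines. The difference of the responses was -0.02, with a 95% interval from -0.43 to 0.39, which does not show that the classes respond alike.

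Fgf4, the autocrine ligand, measured 8.98, 9.25 and 8.95 in the lacking lines without LIF, against 8.72, 9.28 and 9.24 with LIF. For the retaining lines the values were 8.40, 8.67, 8.84, 8.87 and 9.13 without LIF, against 9.50, 9.48, 9.23, 9.07 and 9.48 with LIF. All 5 retaining lines were lower without LIF, while the 3 lacking lines went either way. Fgf4 fell by 0.57 ± 0.13 (adjusted p = 0.00543) in the retaining lines, with responses from -1.10 in EBRTcH3 to -0.20 in MBD3c. Among lacking lines it changed by -0.02 ± 0.17 (adjusted p = 0.976), and the contrast of both responses, 0.55 ± 0.21, did not pass (adjusted p = 0.124).

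**Figure D2:**
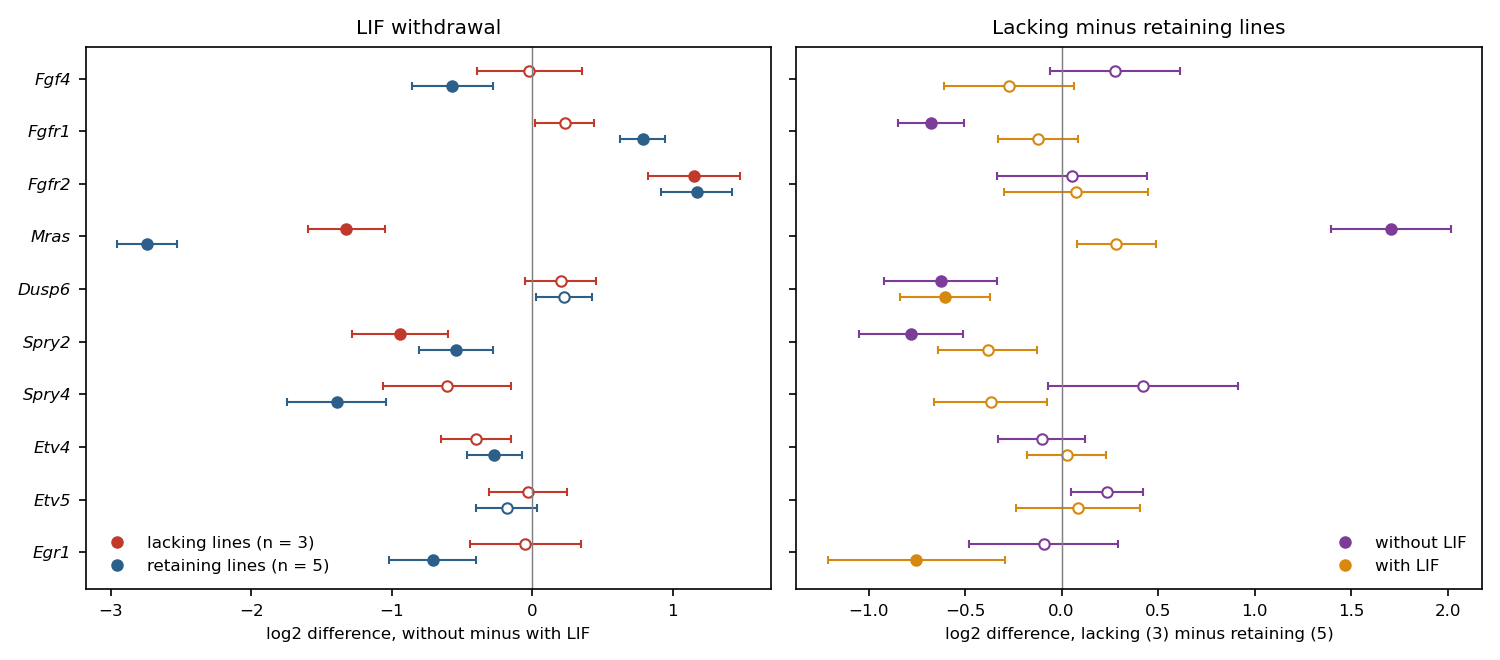
Log2 differences with 95% intervals (horizontal axes) for the 10 genes: at the left LIF withdrawal in lacking (red, 3 lines) and retaining lines (blue, 5 lines), at the right lacking minus retaining lines without (purple) and with LIF (orange). Filled points passed an adjusted p of 0.05; Mras at -1.32 and -2.75 is farthest from 0 at the left, and Dusp6 is the gene filled in both conditions at the right.

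Among the feedback inhibitors, Dusp6 differed by class, with LIF and without it. Its signal in the lacking lines was 9.08, 9.38 and 9.27 without LIF, against 8.95, 9.22 and 8.95 with LIF. Retaining lines had 9.59, 9.86, 9.77, 10.19 and 9.94 without LIF, against 9.63, 9.75, 9.60, 9.72 and 9.52 with LIF. Every lacking line lay below every retaining line in both conditions. The difference between classes was -0.63 ± 0.13 (1.54-fold lower, adjusted p = 0.00744) without LIF and -0.60 ± 0.11 (1.52-fold lower, adjusted p = 0.00347) with LIF. Within the first and second title series, each with a class left at a single line, it was -0.77 and -0.62 without LIF, and -0.73 and -0.44 with LIF. LIF withdrawal changed Dusp6 by 0.20 (adjusted p = 0.458) in lacking lines and by 0.23 ± 0.09 (adjusted p = 0.0717) in retaining lines, and the second value passed without EBRTcH3 (0.29, adjusted p = 0.0389). The difference of these responses was -0.02, with a 95% interval from -0.34 to 0.30.

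Spry2, a Sprouty inhibitor of receptor signalling, measured 8.48, 8.68 and 8.58 in the lacking lines without LIF, against 9.63, 9.58 and 9.36 with LIF. The 5 retaining lines had 9.02, 9.41, 9.51, 9.32 and 9.55 without LIF, against 10.10, 9.90, 9.95, 9.91 and 9.67 with LIF. Spry2 was lower without LIF in all 8 lines, and lower in every lacking line than in every retaining line within either condition. It fell by 0.94 ± 0.15 (adjusted p = 0.00955) among lacking lines and fell by 0.54 ± 0.12 (adjusted p = 0.00420) among retaining lines, and the difference of -0.40 did not pass (adjusted p = 0.223). The fall in the lacking lines missed the threshold without the empty vector line (-0.84, adjusted p = 0.0959) or the coiled-coil-deleted line (-0.97, adjusted p = 0.0539). Without LIF Spry2 was 1.72-fold lower in lacking than in retaining lines (adjusted p = 0.00148). Within the title series, each with a class left at a single line, the differences were -0.84 and -0.92. With LIF the difference of -0.38 ± 0.12 just missed (adjusted p = 0.0509) and passed without MBD-deleted (-0.44, adjusted p = 0.0191).

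Spry4, the other Sprouty gene of the list, measured 9.40, 9.50 and 9.32 in the lacking lines without LIF, against 9.95, 10.14 and 9.95 with LIF. The retaining lines measured 8.26, 9.14, 9.15, 8.92 and 9.46 without LIF, against 10.29, 10.45, 10.47, 10.64 and 10.05 with LIF. All 8 lines were lower without LIF, EBRTcH3 the lowest of them. Spry4 fell by 1.39 ± 0.16 (adjusted p = 5.70e-05) among retaining lines, while -0.61 ± 0.21 among lacking lines did not pass (adjusted p = 0.170). The contrast of the responses, 0.79 ± 0.26, did not pass either (adjusted p = 0.0760). Without the MBD-deleted line, whose response of -0.59 lay within the range of the lacking lines, this contrast was 0.99 (adjusted p = 0.00461), the change in the lacking lines passed (-0.61, adjusted p = 0.0369), and so did the class difference with LIF (-0.45, adjusted p = 0.0214). The value of the lacking lines was the same with and without MBD-deleted, in fits that share the spread of both classes. MBD-deleted is the only retaining line of the second title series. Within the first and second series, each with a class left at a single line, the contrast of the responses was 1.045 and -0.045. The class difference with LIF was -0.51 and -0.005.

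Of the transcription factors, Egr1 measured 7.92, 7.91 and 7.89 in the lacking lines without LIF, against 8.31, 7.83 and 7.73 with LIF. Retaining lines stood at 7.40, 8.03, 8.13, 8.28 and 8.16 without LIF, against 8.51, 8.70, 9.01, 9.13 and 8.20 with LIF. With LIF 4 of the 5 retaining lines lay above all lacking lines, and MBD-deleted lay below the empty vector line. Egr1 fell by 0.71 ± 0.14 (adjusted p = 0.00209) in the retaining lines, against -0.05 (adjusted p = 0.940) among lacking lines. The contrast of the responses, 0.66 ± 0.23, did not pass (adjusted p = 0.0868) and passed without MBD-deleted (0.83, adjusted p = 0.00727). MBD-deleted is the only retaining line of the second title series, so without it class and series are harder to tell apart. Responses ran from -1.11 to -0.39 in the first series and from -0.04 to 0.16 in the second. Within these series the contrast was 0.49 and 0.16. With LIF Egr1 was 1.69-fold lower in lacking than in retaining lines (adjusted p = 0.0348). That call was lost without MBD3a (-0.76, adjusted p = 0.0655), MBD3b (-0.68, 0.0786), MBD3c (-0.65, 0.0660), coiled-coil-deleted (-0.69, 0.130) or doubly deleted (-0.64, 0.148). It was also lost with the title series as a covariate (-0.48, adjusted p = 0.0903). With LIF all arrays of the second title series (7.73 to 8.20) lay below all arrays of the first (8.31 to 9.13). Within the title series, each with a class left at a single line, the difference was -0.53 and -0.42.

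Etv4 and Etv5 moved little. Etv4 measured 7.82, 7.76 and 7.60 in the lacking lines without LIF, against 8.03, 8.23 and 8.12 with LIF. The values of the retaining lines were 7.59, 7.87, 8.01, 7.87 and 7.81 without LIF, against 8.15, 8.16, 8.07, 8.04 and 8.08 with LIF. Every line was lower without LIF, and no array without LIF reached one with LIF in its class. Etv4 fell by 0.27 ± 0.09 (adjusted p = 0.0334) among retaining lines, and -0.40 ± 0.11 among lacking lines did not pass (adjusted p = 0.0975). The first call was lost without EBRTcH3 (-0.20, adjusted p = 0.132), MBD3a (-0.27, 0.0861), MBD3c (-0.30, 0.0574) or MBD-deleted (-0.27, 0.0568). Etv5 ranged from 10.14 to 10.39 in the lacking lines without LIF, against 10.25 to 10.34 with LIF. It ranged from 9.90 to 10.11 in the retaining lines without LIF, against 9.87 to 10.54 with LIF. Without LIF every lacking line lay above every retaining line, by 0.24 ± 0.08 on average, which did not pass (adjusted p = 0.0755). The Etv5 response of -0.18 in the retaining lines (adjusted p = 0.184) passed without MBD-deleted (-0.27, adjusted p = 0.0414).

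**Figure D3:**
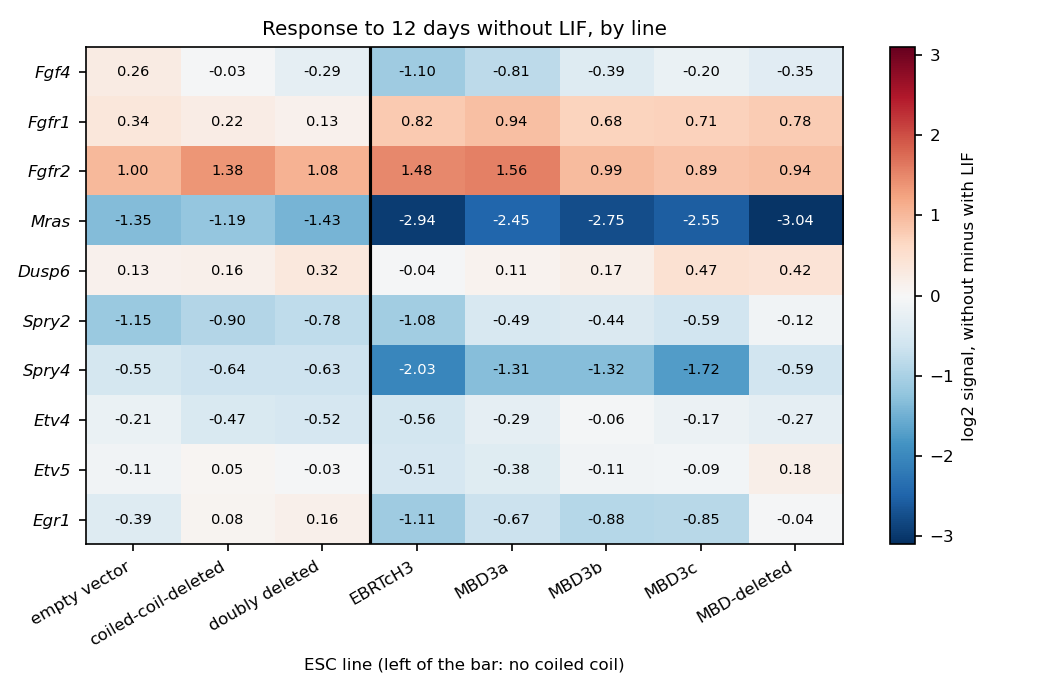
Response to 12 days without LIF (log2 signal without minus with LIF, colour and number) of each gene (vertical) in each ESC line (horizontal), lacking lines left of the black bar. Mras is negative in every line and below -2.4 only at the right of the bar, and MBD-deleted has the smallest Spry2, Spry4 and Egr1 responses of the retaining lines.

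The lines of a class were not uniform, and these values, from 1 array each, carry no test. MBD-deleted, which lacks the methyl-CpG-binding domain and keeps the coiled coil, stood with the other retaining lines for Mras (-3.04) and Fgfr1 (0.78), but changed by -0.12 for Spry2 and -0.04 for Egr1. EBRTcH3 without LIF was the lowest retaining line for 7 of the 10 genes and the highest for 1. Its Spry4 (8.26) lay below 8.92 to 9.46 in the other 4, and its Egr1 (7.40) below 8.03 to 8.28. The coiled-coil-deleted line minus MBD3a, without LIF, gave 1.46 for Mras and -0.81 for Fgfr1. The doubly deleted line minus MBD3a gave 1.42 for Mras and -0.88 for Fgfr1. MBD-deleted minus MBD3a gave -0.55 for Mras and -0.19 for Fgfr1. MBD3a belongs to the first title series and the 3 deletion lines to the second, so construct and series cannot be told apart in these differences.

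The wider pathway was described over 5 lists of 107 other genes, of which 94 had a probe set and 93 were tested. The others were not analysed here. On LIF withdrawal 5 genes rose and 0 fell in the lacking lines by the limma fit. These are 5.38% and 0% of the 93, against 1.71% and 1.22% of all genes, and the median was 0.08. At an unadjusted p under 0.05, 6 genes were lower there, 0 to 3 per list, and 0 to 6 per list were higher. In the retaining lines 42 rose and 11 fell (45.2% and 11.8%, against 21.3% and 14.5% of all genes), with a median of 0.22, against 0.04 over all genes. The responses of 5 genes were higher and those of 25 lower in lacking than in retaining lines (5.38% and 26.9%, against 4.17% and 7.9% of all genes). Without LIF 8 genes were higher and 33 lower (8.6% and 35.5%, against 8.55% and 12.4%), and with LIF 10 were higher and 12 lower (10.8% and 12.9%, against 7.65% and 6.48%). Counts at an adjusted p under 0.05 in the 5 lists below stand against these same shares of all genes. No share of all genes was computed at an unadjusted p under 0.05, so the unadjusted counts have no background. With 1.71% and 1.22% of all genes passing in the lacking lines, no call among 16 to 21 genes there is near the background. The medians of LIF withdrawal were thus above 0 for these genes and below it for the 10 named ones.

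Of 19 other ligands, 3 rose in the lacking lines and 8 rose and 3 fell in the retaining lines. Fgf5, the ligand that marks the epiblast after it leaves the naive state, averaged 7.92 ± 0.20 (SD, n = 3) without LIF and 6.47 ± 0.12 with LIF in lacking lines, and 8.94 ± 0.33 (SD, n = 5) and 6.00 ± 0.38 in retaining lines. It rose by 1.45 in lacking lines (adjusted p = 0.00659) and by 2.94 in retaining lines (adjusted p = 3.86e-07), and the difference of -1.49 passed (adjusted p = 0.00552). Fgf15 was higher in lacking than in retaining lines with LIF, by 1.59 (adjusted p = 0.00120), and Fgf1 was lower (-1.32, adjusted p = 0.000908).

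Of 16 other receptors and co-receptors, 2 rose in the lacking lines and 9 rose and 1 fell in the retaining lines. The heparan sulphate proteoglycan Gpc4 averaged 8.03 ± 0.21 (SD, n = 3) without LIF and 7.88 ± 0.10 with LIF in lacking lines, and 9.26 ± 0.26 (SD, n = 5) and 7.18 ± 0.44 in retaining lines. Its responses differed by -1.94 (adjusted p = 0.000228). Ext1, which encodes a heparan sulphate polymerase, was lower in lacking than in retaining lines with LIF (-1.09, adjusted p = 0.000236). In that comparison 2 of the 16 genes were higher and 2 lower. Without LIF 3 were higher in lacking lines and 7 lower, with Sdc4 among the higher (1.12, adjusted p = 0.000408).

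In the cascade from RAS to ERK, 21 genes were tested. None passed in the lacking lines by limma, where 0 were higher and 1 was lower at an unadjusted p under 0.05, and in the retaining lines 8 rose and 3 fell. Rras, another RAS-family GTPase, rose where Mras fell in the retaining lines. It averaged 8.59 ± 0.21 (SD, n = 3) without LIF and 8.40 ± 0.22 with LIF in lacking lines, and 10.36 ± 0.46 (SD, n = 5) and 7.87 ± 0.34 in retaining lines. It rose by 2.48 in the retaining lines (adjusted p = 1.57e-06), and its responses differed by -2.29 (adjusted p = 0.000602). In the lacking lines its difference of 0.19 did not pass (adjusted p = 0.773), nor did 0.52 between lacking and retaining lines with LIF (adjusted p = 0.0867). Rasgrp1, a RAS exchange factor, was lower in lacking than in retaining lines without LIF (-1.69, adjusted p = 9.28e-05) and with LIF (-1.05, adjusted p = 0.000959).

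Of 16 other feedback genes, 9 rose and 3 fell in the retaining lines and none passed in the lacking lines by limma (2 higher and 1 lower at an unadjusted p under 0.05). Dusp9, an ERK phosphatase, averaged 9.98 ± 0.11 (SD, n = 3) without LIF and 9.58 ± 0.50 with LIF in lacking lines, and 10.75 ± 0.52 (SD, n = 5) and 9.05 ± 0.25 in retaining lines. Its responses differed by -1.30 (adjusted p = 0.0115). Of 21 other transcription factors and immediate early genes, 8 rose and 1 fell in the retaining lines, none passed in the lacking lines by limma (6 higher and 3 lower at an unadjusted p under 0.05), and 9 were lower in lacking than in retaining lines without LIF. Jun, a subunit of AP-1, averaged 7.26 ± 0.15 in lacking lines and 8.57 ± 0.21 in retaining lines without LIF, a difference of -1.31 (adjusted p = 0.000102). Myc differed by -1.20 (adjusted p = 0.000108).

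**Figure D4:**
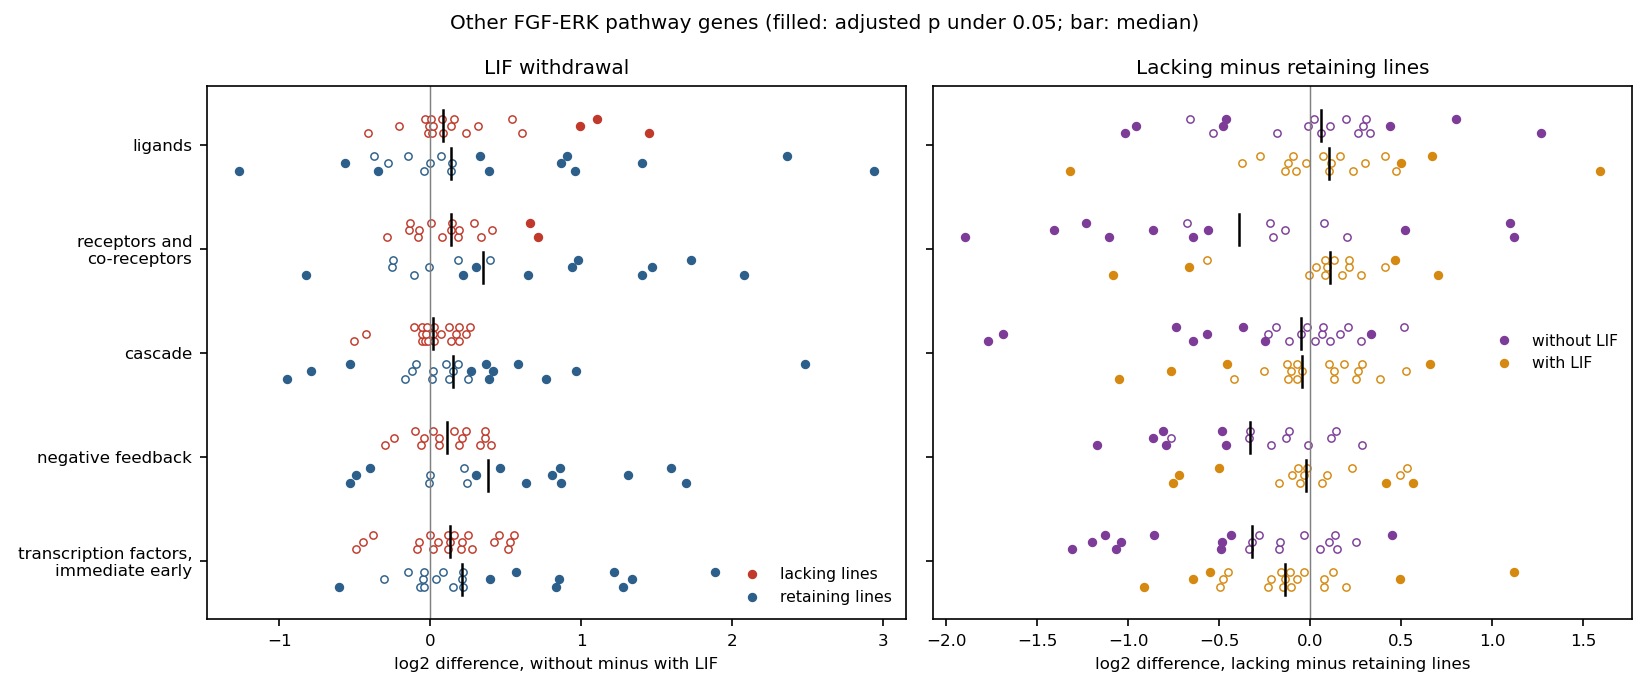
Log2 differences (horizontal axes) of the 93 other FGF-ERK genes in 5 lists (vertical), a point per gene, filled where the adjusted p was under 0.05, with a bar at each median. LIF withdrawal is at the left (lacking lines red, retaining lines blue) and lacking minus retaining lines at the right (without LIF purple, with LIF orange); few red points are filled, and the largest blue value is Fgf5 at 2.94.

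Markers of other cell types moved with the same contrasts, and their part in the results above was not tested. Their counts stand against 1.71% of all genes rising and 1.22% falling in lacking lines. In retaining lines these shares were 21.3% and 14.5%. With LIF 7.65% of all genes were higher in lacking than in retaining lines. The mean signal of 9 trophoblast markers ranged from 7.90 to 8.11 without LIF and from 7.10 to 7.49 with LIF in lacking lines. In retaining lines it ranged from 8.25 to 9.41 without LIF and from 6.36 to 6.88 with LIF. Of these markers 3 rose in lacking lines, and 7 rose and 1 fell in retaining lines, Krt18 by 4.76. The mean of 9 primitive endoderm markers was 6.39 to 6.48 without LIF and 6.41 to 6.60 with LIF in lacking lines, and 6.77 to 7.10 and 6.28 to 6.46 in retaining lines. These markers were split: 1 rose and 1 fell in lacking lines, and 5 rose and 3 fell in retaining lines. Among retaining lines Dab2 rose by 2.70, while Lama1 averaged 6.34 without LIF and 7.71 with LIF. Fibroblast markers, of which 6 of 8 were tested, averaged 5.88 to 6.00 without LIF and 5.86 to 6.09 with LIF in lacking lines, and 6.12 to 6.63 and 5.50 to 5.73 in retaining lines, with Lum and Postn left out as dim and Dcn group means of 3.34 to 4.39 near or below the floor. The mean of 9 formative and primed epiblast markers, Fgf5 among them, was 8.53 to 8.76 without LIF and 8.16 to 8.23 with LIF in lacking lines, and 8.92 to 9.13 and 7.64 to 8.00 in retaining lines. Of these, 3 rose and 1 fell in lacking lines, 6 rose and 1 fell in retaining lines, and 5 were higher in lacking than in retaining lines with LIF. Of 13 LIF and STAT3 targets, 7 fell in lacking lines and 11 in retaining lines. Klf4 among them fell by 1.73 in lacking lines and fell by 2.44 in retaining lines.

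Over the 16 arrays, which share lines and conditions, Mras and Spry4 varied together (Pearson's r = 0.853), as did Fgfr1 and Dusp6 (r = 0.701), while Mras and Fgfr1 ran opposite (r = -0.947). Tested genes were also ranked by correlation with each member over the same arrays, leaving out symbols that start with Gm and a number, end in Rik or start with Mir. Among the rest, the gene most like each member was Fzd2 for Fgfr1 (r = 0.989), Dclk2 for Spry2 (0.979), Eed for Mras (0.967), Kat2b for Spry4 (0.958), Cpox for Dusp6 (0.958), Erbin for Egr1 (0.939), Esrp1 for Fgfr2 (0.916), Tdgf1 for Etv4 (0.905), Gins1 for Fgf4 (0.895) and Nol6 for Etv5 (0.853). Each r is a description over arrays that split by condition and class.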

How the data were processed

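Total RNA of 16 samples was hybridized to 16 arrays. The log2 signals were deposited by the authors. Per the submitters' processing notes they come from RMA, with the tool affy; no version or probe set file was given. Array medians were 4.72 to 4.85, values ran from 0.98 to 14.21, and pairs of arrays correlated at 0.971 to 0.995. RMA aligns the arrays' distributions, so a shift of all genes cannot be seen. The number of arrays limits the precision.

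Of 65770 probe sets, 27 had no value. Those with a single symbol (30439, against 2146 with several and 33185 with none) were used, with symbols updated by Entrez identifier (22653 matched, 827 changed), and the probe set with the highest mean was kept for each of 30102 genes. Genes above the 40th percentile of the array (4.24 to 4.38) on at least 3 arrays were tested (22872).

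The tests used limma 3.58.1 (R 4.3.3) over all tested genes, with empirical Bayes moderation, Benjamini-Hochberg adjustment over all genes of a comparison, and 5 comparisons. LIF responses held the line as a block, since the labels pair the 2 arrays of each line, and class differences used the 8 arrays of a condition. The LIF responses of both classes come from the same fit, which shares the spread of all lines. Standard errors, intervals and adjusted p-values come from these fits, which were first tested on simulated data. The promoter table served for sequences and coordinates only. Alternatives changed the filter, scaling, weights, variance prior, block, title series and lines included.

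The 10 genes, the lists and the alternatives were chosen with earlier results of these data known. The text names all 10 in every comparison; up to 4 other genes per list and comparison, the largest differences that passed, were eligible for naming, along with up to 3 per marker list, and the 3 genes most like each member, of which the text gives the first.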

Additional observations from a re-analysis of the deposited data

Results flagged for a closer look

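Egr1 in EBRTcH3 without LIF was 7.40, against 8.03 to 8.28 in the other 4 retaining lines, and the gap was 0.716 of the whole range of the 5 lines. It was the 1 value that stood apart among 30 sets of 5 retaining lines examined, which are the 10 genes without LIF, with LIF and by response, and the 95% limit used marks about 1 in 20 sets by chance. The response of Mras to LIF withdrawal differed between lacking and retaining lines by 1.42 (adjusted p = 0.000364), with lower values in 8 of 8 lines. That of Fgfr1 differed by -0.56 (adjusted p = 0.0130), with higher values in 8 of 8 lines.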

How the results depend on the processing

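Over 19 other settings, 869 of 930 values of the 10 genes kept their side of the threshold, 42 lost a call and 19 gained one. No value with a call changed direction, and 36 without a call did. Of the lost calls, 19 came from the second title series alone, where 2 lines stand against 1, and 7 from the first. Leaving out 1 line lost 13 and gained 7 of 400. The number of the 10 genes passing on LIF withdrawal in the lacking lines was 5 with array weights (1611 genes in all, against 670), 0 within the first title series (84 in all), 0 within the second (0 in all) and 2 to 4 leaving out a line (114 in all without the empty vector line to 1039 without MBD-deleted). For the difference of the responses it was 4 with array weights (5414 in all, against 2760), 1 within the first series (732), 0 within the second, and 1 to 4 leaving out a line (1353 in all without coiled-coil-deleted to 3914 without MBD-deleted). For the class difference with LIF it was 4 with array weights (5373 in all, against 3233) or with a variance prior that follows the mean signal (3378), 1 with the title series as a covariate (2343) or within the first series (680), 0 within the second, and 1 to 4 leaving out a line (1779 in all to 3866, without the same lines). Within the second series it was also 0 in the retaining lines (0 in all, against 8181) and for the class difference without LIF (0 in all, against 4791). Without LIF the classes differed in 1822 genes in all within the first series and in 3014 without the doubly deleted line. The fit with no replicate block gave 8, 4 and 2 of the 10 genes in the retaining lines, the lacking lines and their difference, and the line as block removed only the Etv4 call in the lacking lines (adjusted p = 0.0445 without it). Centring each array on its median gained Dusp6 (0.29, adjusted p = 0.0477) and lost Etv4 (-0.21, adjusted p = 0.122) in the retaining lines. The cause of each change was not tested. Within a title series the number of lines, the constructs and the series change together and cannot be told apart. Separate probe sets could not be compared, since each of the 10 genes has 1. Signal near the array floor (4.24 to 4.38) limits what the dimmest list genes, such as Fgf21, Fgf10 and Dcn, can show.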
